A study of Mus musculus with 8 samples.

Results

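The genes followed here are 7 transcription factors that mark the eye field and the neural retina, Pax6, Six3, Six6, Rax, Lhx2, Sox2 and Sox9. They were taken as every probe set of the array whose annotated symbol is one of these names, which gave 15 of 45101 probe sets. Signals were measured in mouse optic fissure, the cleft on the ventral side of the optic cup whose margins meet and fuse as the eye forms. Laser capture took the tissue from cryosections of untreated, wild-type embryos of strain C57BL/6, staged as embryonic day 10.5 (E10.5, 3 arrays), 11.5 (E11.5, 3 arrays) and 12.5 (E12.5, 2 arrays). Each array, named by its stage and a letter from its title, carried amplified RNA of a pool of 3 embryos. Stage was the only variable that the labels name. One label places the pooled embryos in a single litter and another in separate litters, so the p-values measure the spread between pools and not between known litters.

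The eye field is the patch of anterior neural plate from which both eyes arise, and Rax, Pax6, Six3 and Lhx2 are among the factors that specify it. The same factors act again in the optic cup, where they keep retinal progenitor cells dividing and able to form neurons. Six6 works beside Six3 as a repressor, Sox2 keeps progenitors neurally competent, and Sox9 is used by retinal progenitors and later by Müller glia. Several of them are not confined to the neural retina, and Pax6 for example is also made in the pigmented layer of the cup and in the lens.

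Every value below is a deposited log2 signal, in which a difference of 1 is a doubling, and a probe set's signal is not a count of transcripts that can be set against another probe set's. Of the 15 probe sets, 11 passed a filter that left out the lowest 40% by mean signal (below 3.94 on the log2 scale), and each gene kept at least 1. One probe set of Pax6, 1 of Six3 and 2 of Sox9 did not pass. A gene is described by its probe set of highest mean signal unless another is named.

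The arrays differed at the upper end of their range, which touches most of the 7 genes. Medians lay between 4.37 and 4.48 on the log2 scale. The mean signal of the brightest 10% of probe sets (4504 probe sets with a mean of at least 8.61) was 10.66, 10.34 and 10.46 on the E10.5 arrays, 9.43, 9.88 and 10.26 on the E11.5 arrays, and 10.42 and 10.28 on the E12.5 arrays. The median probe set of that group was 0.67 lower at E11.5 than at E10.5 and 0.53 higher at E12.5 than at E11.5 on the log2 scale. By mean signal Pax6, Six3, Six6, Lhx2 and Sox2 belonged to it, and Rax and Sox9 did not. Quantile normalization, which gives every array the same distribution, is therefore quoted beside the deposited values, and it reduced those medians to −0.01 for both comparisons. Arrays E10.5 C and E11.5 A stood apart from the others on the first 2 principal components (39.3% and 29.4% of variance). The 3 prime minus 5 prime difference of Gapdh control probe sets ran from 3.35 (E11.5 A) to 5.17 (E12.5 A) on the log2 scale. For Actb it ran from 5.45 (E11.5 A) to 7.21 (E12.5 B). The part of this difference between arrays in the member values was not tested. Ventral markers of the optic cup were present, with Vax2 averaging 8.86, 8.95 and 9.84 and Vax1 8.88, 7.77 and 7.88 at E10.5, E11.5 and E12.5 on the log2 scale.

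Promoter sequence was printed for Sox2, the gene that passed the test below, and for Six3 and Six6, the 2 members whose signals followed each other most closely. Each is the 250 bases before the annotated start on the plus strand, from RefSeq with build GRCm38.p6. They lie at chr17:85620584-85620833 (Six3), chr12:72939632-72939881 (Six6) and chr3:34649745-34649994 (Sox2). Capitals mark the CCAAT box, read as CCAAT or on the other strand as ATTGG.
Six3: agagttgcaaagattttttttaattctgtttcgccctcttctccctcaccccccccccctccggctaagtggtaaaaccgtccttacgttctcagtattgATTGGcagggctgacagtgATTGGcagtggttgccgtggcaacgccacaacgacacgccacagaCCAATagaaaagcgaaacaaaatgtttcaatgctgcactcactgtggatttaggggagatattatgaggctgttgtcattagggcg
Six6: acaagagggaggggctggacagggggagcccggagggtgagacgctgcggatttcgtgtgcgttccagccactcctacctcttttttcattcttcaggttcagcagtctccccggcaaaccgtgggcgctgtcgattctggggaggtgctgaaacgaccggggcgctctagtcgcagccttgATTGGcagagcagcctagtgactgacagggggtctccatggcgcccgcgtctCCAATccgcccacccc
Sox2: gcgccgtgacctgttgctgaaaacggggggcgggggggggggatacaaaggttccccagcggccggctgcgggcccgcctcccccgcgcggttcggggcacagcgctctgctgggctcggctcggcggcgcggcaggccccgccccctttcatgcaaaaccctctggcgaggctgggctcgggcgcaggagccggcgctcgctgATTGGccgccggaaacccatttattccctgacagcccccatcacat

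Six3 held 3 CCAAT boxes, the first bases of which lay 150, 131 and 86 bases before the start, and the 2 nearer the distal end were on the other strand. Six6 held 2, at 68 bases (other strand) and 16 bases, and Sox2 held 1, at 46 bases (other strand). Of 32851 mouse windows of this length, 33.8% held at least 1 and 10.1% at least 2. The windows also differed in base composition, with 48.8% G and C for Six3, 62.8% for Six6 and 72% for Sox2, against a median of 52.4% over all windows. CpG dinucleotides numbered 10, 17 and 27 in Six3, Six6 and Sox2, against a median of 6. The matches are letters in these windows and were not tested as binding sites. RefSeq windows of 5 of the 7 genes (7 windows) were used, and no window of Rax or Sox9 was. Windows on a single chromosome were left out by choice, so an unused gene is not one shown to lack a window. Of the other genes used, Lhx2 held 0 boxes in its 2 windows and Pax6 held 1 and 0.

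Sox2, the SRY-box factor that maintains neural progenitors, was the one member that changed by the test across all probe sets. Its log2 signal was 11.45, 11.40 and 11.42 on the E10.5 arrays, 9.75, 10.26 and 10.62 on the E11.5 arrays, and 12.21 and 12.21 on the E12.5 arrays. The 3 stages did not overlap, with E11.5 lowest and E12.5 highest, and the E10.5 and E12.5 arrays lay close together within each stage. Sox2 rose 3.99-fold at E12.5 over E11.5, by 2.0 on the log2 scale (SE 0.34, 95% interval 1.25 to 2.75, limma adjusted p = 0.0129). It was 1 of the 11 tested member probe sets to be called in that comparison, where 1.82% of all 27022 probe sets were. After quantile normalization the rise was 1.39 (SE 0.17, limma adjusted p = 0.00398).

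The lower Sox2 signal at E11.5 than at E10.5 did not pass the test, with a difference of −1.21 (SE 0.31, 95% interval −1.88 to −0.54, limma adjusted p = 0.143), and quantile normalization brought it to −0.41 (SE 0.15). Against E10.5, the E12.5 arrays were 0.79 higher on the log2 scale (SE 0.34, limma adjusted p = 0.206). That comparison passed after quantile normalization, at 0.97 (SE 0.17, limma adjusted p = 0.0126). A test for any stage difference called Sox2 alone of the 11 (limma F test, adjusted p = 0.0192), with 2.92% of all probe sets called. With 2 arrays at E12.5, the rise over E11.5 was lost when any 1 of E12.5 A (adjusted p = 0.0866), E12.5 B (0.226) and E11.5 B (0.0772) was left out of the limma fit, and it kept its direction each time. The 2 E12.5 arrays differed in the summed signal of 14 retinal neuron markers, 644.7 (array A) and 10701.8 (array B) on the linear scale. On the earlier arrays it was 289.9 to 512.8. Nefl was the brightest of the 14 on both, at 7.24 (A) and 12.72 (B) on the log2 scale, while Crx was 4.84 and 4.95. The mean log2 signal of the 14 was 5.09 (A) and 7.78 (B). Sox2 was 12.21 on both arrays, and the part of neurons in its values was not tested.

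**Figure D1:**
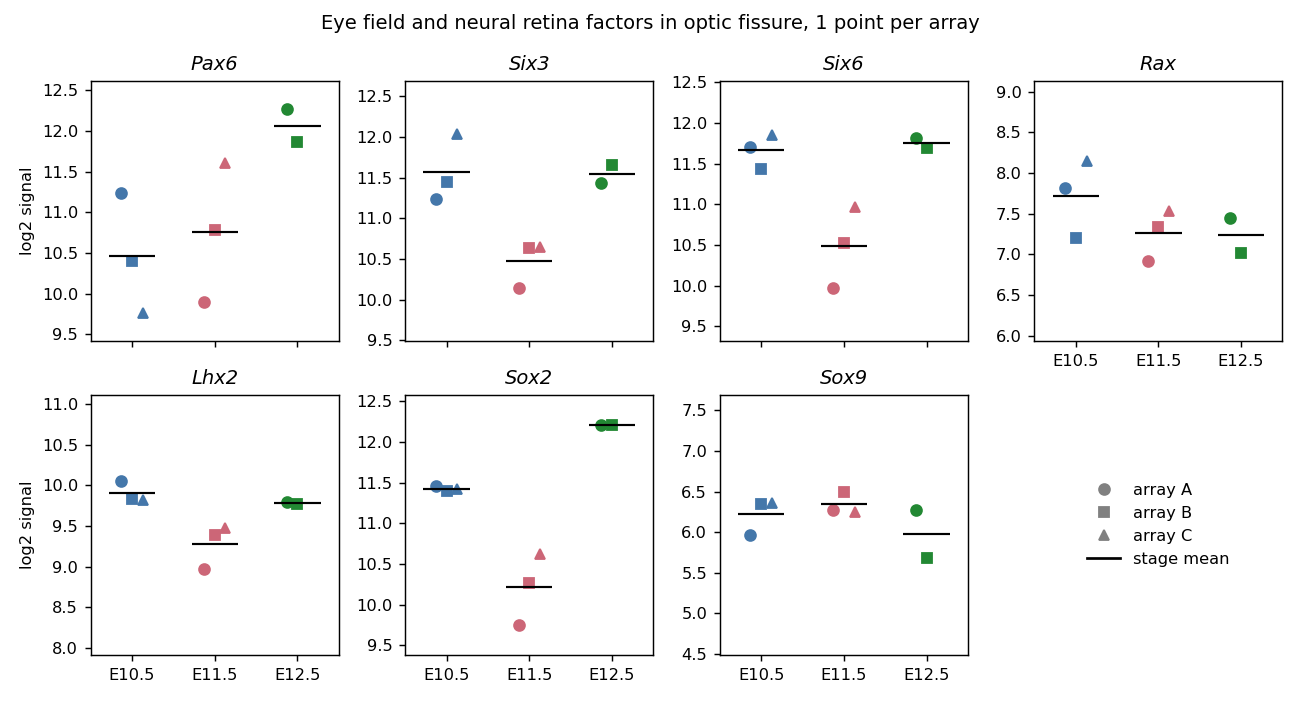
Log2 signal (vertical axis, own range in each panel) of the 7 genes by stage (horizontal axis), 1 point per array with its letter as the shape, and the stage mean as a line. Sox2 separates all 3 stages, Six3, Six6 and Lhx2 are lowest on the E11.5 arrays, and Pax6 spreads widely within E10.5 and E11.5.

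Six3 and Six6 are closely related homeobox repressors, Six3 acting from the eye field onward and Six6 in the retinal progenitors of the cup. Six3 signal was 11.23, 11.45 and 12.04 at E10.5, 10.14, 10.63 and 10.65 at E11.5, and 11.43 and 11.66 at E12.5 on the log2 scale. Six6 signal was 11.70, 11.44 and 11.86 at E10.5, 9.98, 10.53 and 10.97 at E11.5, and 11.82 and 11.69 at E12.5. Both were lower on every E11.5 array than on every array of the other stages, and their E10.5 and E12.5 arrays overlapped.

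Markers of other cell types moved over the same stages and are given beside the low E11.5 values of Six3, Six6, Sox2 and Lhx2. The 17 markers of periocular mesenchyme and neural crest, summed on the linear scale, were 500.1 to 710.6 at E10.5, 1163.3 to 2029.9 at E11.5, and 1114.8 and 1765.9 at E12.5. Of these, 4 were below the filter. Of 13 tested, 3 rose and 0 fell at E11.5 over E10.5 by limma, with a median of 1.27. At an unadjusted p below 0.05, 10 were higher there, beside 3.4% of all probe sets. At E12.5 over E11.5, 0 passed. At an unadjusted p below 0.05, 2 were higher and 3 lower there, beside 13.8% and 2.92% of all probe sets. Pigment epithelium markers rose in 4 of 11 cases at E11.5 over E10.5, with a median of 1.82. Of all genes, 0.153% rose in that comparison. Among those called, Ogn of the mesenchyme markers and Tyr and Gpr143 of the pigment markers averaged 3.10, 3.77 and 3.86 at E10.5. They lay below the filter level of 3.94 there and passed it through their later signal, so their calls are not a test of the rise. The counts and medians include them. The part of periocular mesenchyme, neural crest and pigment cells in the E11.5 values was not tested.

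Neither Six3 nor Six6 passed the test in any pair of stages. The E11.5 arrays lay below the E10.5 arrays by −1.10 (SE 0.32, limma adjusted p = 0.159) for Six3 and by −1.17 (SE 0.33, limma adjusted p = 0.156) for Six6. The E12.5 arrays lay above the E11.5 arrays by 1.07 (SE 0.36, limma adjusted p = 0.17) for Six3 and by 1.26 (SE 0.37, limma adjusted p = 0.12) for Six6. These sizes shrank after quantile normalization, to −0.22 and 0.39 for Six3 and to −0.30 and 0.60 for Six6. E12.5 differed from E10.5 by −0.03 for Six3 (95% interval −0.81 to 0.76) and by 0.09 for Six6 (−0.71 to 0.88), intervals that leave room for changes of over 1.5-fold either way. The difference Six6 minus Six3 within an array averaged 0.09 ± 0.34, 0.02 ± 0.26 and 0.21 ± 0.25 over the E10.5, E11.5 and E12.5 arrays (SD, n = 3, 3 and 2). It gave no stage difference in an exact permutation test (p = 0.736 over 560 assignments, and 0.736 adjusted over the 2 pairs tested). The other 2 Six3 probe sets were near the lower end of the range, between 3.76 and 4.26 for 1426638_at and between 3.02 and 3.57 for 1426637_a_at, which was not tested.

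Lhx2 and Rax complete the eye field group. Lhx2, a LIM homeobox factor needed for the optic vesicle to become a cup, measured 10.05, 9.82 and 9.82 at E10.5, 8.97, 9.38 and 9.47 at E11.5, and 9.79 and 9.76 at E12.5 on the log2 scale. Its E11.5 arrays again lay below all others. The E11.5 minus E10.5 difference of Lhx2 was −0.62 (SE 0.26, limma adjusted p = 0.228) and the E12.5 minus E11.5 difference 0.50 (SE 0.29, limma adjusted p = 0.409). Both were close to 0 after quantile normalization, at −0.04 and 0.02.

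Rax, the retina and anterior neural fold homeobox factor without which the optic vesicles do not form, did not separate the stages. Its log2 signal was 7.81, 7.20 and 8.14 at E10.5, 6.92, 7.34 and 7.53 at E11.5, and 7.45 and 7.02 at E12.5. The stages overlapped in all 3 pairs. Rax averaged 7.72 ± 0.48, 7.26 ± 0.31 and 7.24 ± 0.30 (SD, n = 3, 3 and 2), in the order E10.5, E11.5 and E12.5, with neighbouring stages within their spread. E12.5 minus E10.5 was −0.48 for Rax (SE 0.32, limma adjusted p = 0.411) and −0.50 after quantile normalization.

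**Figure D2:**
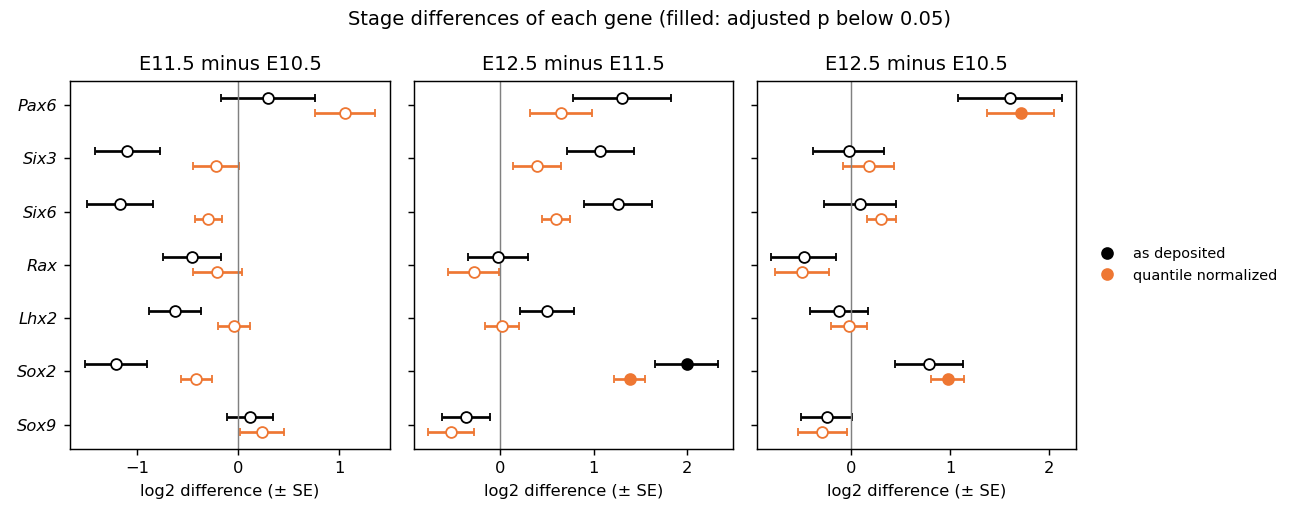
Difference of stage means on the log2 scale (horizontal axis, later minus earlier, with bars of 1 SE) for the 7 genes in the 3 stage comparisons, from the deposited values (black) and after quantile normalization (orange). Filled points have a limma adjusted p below 0.05. Sox2 at E12.5 over E11.5 is filled in both, and Sox2 and Pax6 at E12.5 over E10.5 are filled after quantile normalization.

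Pax6 encodes the paired and homeobox factor often called the master regulator of eye formation, and it is carried by 5 probe sets on this array. The brightest, 1419271_at, measured 11.23, 10.41 and 9.76 at E10.5, 9.90, 10.79 and 11.61 at E11.5, and 12.27 and 11.86 at E12.5 on the log2 scale. Both E12.5 arrays lay above the other 6, while E10.5 and E11.5 overlapped and each spanned over 1 log2 unit. The SD within those stages was 0.74 at E10.5 and 0.86 at E11.5, against 0.03 and 0.44 for Sox2.

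At E12.5 the brightest Pax6 probe set was 3.03-fold its E10.5 level, a difference of 1.60 on the log2 scale that did not pass the test (SE 0.52, 95% interval 0.45 to 2.75, limma adjusted p = 0.105). After quantile normalization it did, at 1.71 (SE 0.34, limma adjusted p = 0.021). The E12.5 minus E11.5 difference of Pax6 was 1.31 (SE 0.52, limma adjusted p = 0.244), and 0.65 after quantile normalization. For E11.5 minus E10.5 the Pax6 value was 0.30 (SE 0.47, limma adjusted p = 0.759), and 1.06 (SE 0.30, adjusted p = 0.254) after quantile normalization.

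A second Pax6 probe set, 1452526_a_at, also had both E12.5 arrays above the rest. It measured 4.46, 4.92 and 6.04 at E10.5, 5.16, 6.19 and 5.85 at E11.5, and 6.40 and 6.55 at E12.5 on the log2 scale. The difference between E12.5 and E10.5 was 1.33 (SE 0.42, limma adjusted p = 0.0916), and the adjusted p fell below 0.05 when E10.5 C was left out. The 3 other probe sets of Pax6 gave no such order. One of them, 1437816_at, measured 6.04, 6.56 and 7.70 at E10.5, 6.50, 6.74 and 6.49 at E11.5, and 6.72 and 7.11 at E12.5, with overlap between all stages, and 1456342_at and 1425960_s_at stayed between 3.56 and 5.09.

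The probe sets of Pax6 disagreed within E10.5. The brightest was highest on array A and lowest on array C, whereas 1452526_a_at and 1437816_at were lowest on A and highest on C. The deposited table does not say which part of the transcript each reads. Over the same arrays the 12 markers of retinal pigment epithelium, summed on the linear scale, were 8252.8, 4248.6 and 2826.2 at E10.5, 6378.9, 8154.3 and 11462.8 at E11.5, and 7176.3 and 4680.3 at E12.5. Within each stage their order across arrays was that of the brightest Pax6 probe set. At E12.5 the pigment marker sum was inside its earlier range, but the mean log2 signal of the 12 markers, 8.24 and 7.79, was above that of every E10.5 array (7.29, 6.59 and 6.41). At E12.5 over E10.5, 5 of 11 tested pigment markers rose and 1 fell by limma, beside 3.49% and 1.78% of all genes. Their median was 1.53, with 9 differences positive and 2 negative. The negative ones were Trpm1, at −2.73 (SE 0.55, limma adjusted p = 0.0191), and Mitf, at −1.18 (SE 0.48, limma adjusted p = 0.182). Among those that rose, Tyr and Gpr143 averaged 3.77 and 3.86 at E10.5, below the filter level of 3.94. They passed it through their later signal, so their calls are not a test of the rise. Of these markers Mitf, a factor of pigment cell identity, was 8.67 to 11.05 on the log2 scale over all arrays, and Rpe65, a late marker, was below the filter. Lens markers, whose tissue also makes Pax6, summed to 494.2 to 1094.1, with 8 of 17 below the filter by mean signal. Their mean log2 signal was 4.23 to 4.53 over the arrays. The brightest by mean signal were Maf, at 6.76 to 9.53, and Cryab, at 3.71 to 8.47 on the log2 scale. The part of either cell type in the Pax6 values was not tested. In pooled bulk tissue, fewer cells of a type and less RNA per cell cannot be told apart.

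**Figure D3:**
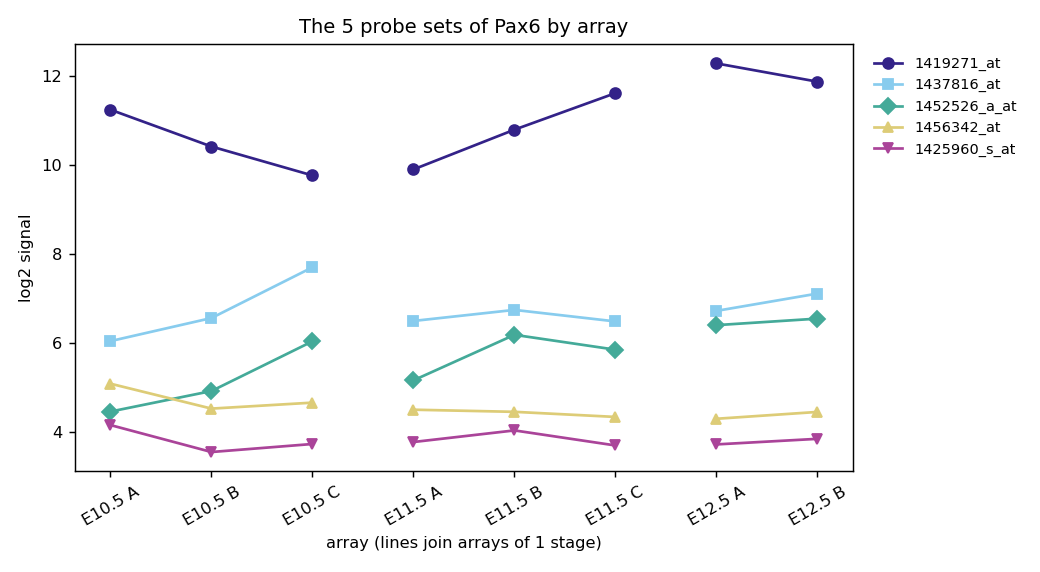
Log2 signal (vertical axis) of the 5 Pax6 probe sets on the 8 arrays (horizontal axis), with lines joining the arrays of 1 stage. Among the E10.5 arrays the brightest probe set is highest on A, while 1452526_a_at and 1437816_at are highest on C, and the 2 E12.5 arrays are the highest for the brightest and for 1452526_a_at.

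Sox9, which drives cartilage formation and is also made by retinal progenitors, showed no stage order. Its brightest probe set, 1451538_at, measured 5.97, 6.35 and 6.36 at E10.5, 6.28, 6.50 and 6.25 at E11.5, and 6.27 and 5.68 at E12.5 on the log2 scale. All stages overlapped. The differences of Sox9 were 0.12 (SE 0.23, limma adjusted p = 0.813) for E11.5 minus E10.5 and −0.36 (SE 0.26, limma adjusted p = 0.51) for E12.5 minus E11.5, with −0.53 for the second after quantile normalization. The 2 other Sox9 probe sets, 1424950_at and 1433889_at, lay between 3.66 and 4.26 and were not tested.

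Whether Sox9 and Sox2 differed by the same amount at every stage was tested within arrays. Sox9 minus Sox2 averaged −5.20 ± 0.25, −3.87 ± 0.46 and −6.23 ± 0.41 on the log2 scale over the E10.5, E11.5 and E12.5 arrays (SD, n = 3, 3 and 2). The stages did not overlap, and the exact permutation test of stage gave p = 0.00357, the smallest that 560 assignments allow, and 0.00714 adjusted over the 2 pairs. This difference removes only a shift that both probe sets share, and the bright Sox2 and the dimmer Sox9 did not lie in the same range of signal.

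Counts over the 7 genes were as follows. For E11.5 minus E10.5, limma called 0 of the 11 member probe sets, beside 0.126% of all. At an unadjusted p below 0.05, 4 of the 7 genes were lower (Sox2, Six6, Six3 and Lhx2), where 16% of all probe sets were, and 0 were higher, beside 3.4%. All 4 belong to the brightest 10% of probe sets, of which 95.1% lay below 0 in this comparison. The arrays of those 4 genes and of Pax6 1456342_at did not overlap, with E11.5 below E10.5, a pattern found in 19.3% of all probe sets, and 0 had the opposite one, beside 3.57%. In the comparison of E12.5 with E11.5, 6 of the 11 probe sets had both E12.5 arrays above all E11.5 arrays, namely those of Sox2, Six6, Six3 and Lhx2 and 2 of Pax6, beside 29.6% of all, and 0 had both below, beside 14.1%. At an unadjusted p below 0.05, 4 of the 7 genes were higher (Sox2, Six6, Six3 and Pax6), beside 13.8%, and 0 lower, beside 2.92%. E12.5 minus E10.5 gave 0 called of 11, beside 4.64% of all, and at an unadjusted p below 0.05, 2 of the 7 genes were higher (Pax6 and Sox2), beside 10.7% of all probe sets, and 0 were lower, beside 11.5%. There the E12.5 arrays lay above all E10.5 arrays for Sox2 and 2 probe sets of Pax6, beside 19.3% of all, and below them for Lhx2 and Pax6 1456342_at, beside 25.7%. Median differences over the 7 genes were −0.62, 1.07 and −0.03 in these 3 comparisons, and −0.21, 0.39 and 0.18 after quantile normalization. Over all 13050 genes the medians were −0.22, 0.11 and −0.10 on the deposited values, and −0.0027, −0.0735 and −0.0714 after quantile normalization.

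**Figure D4:**
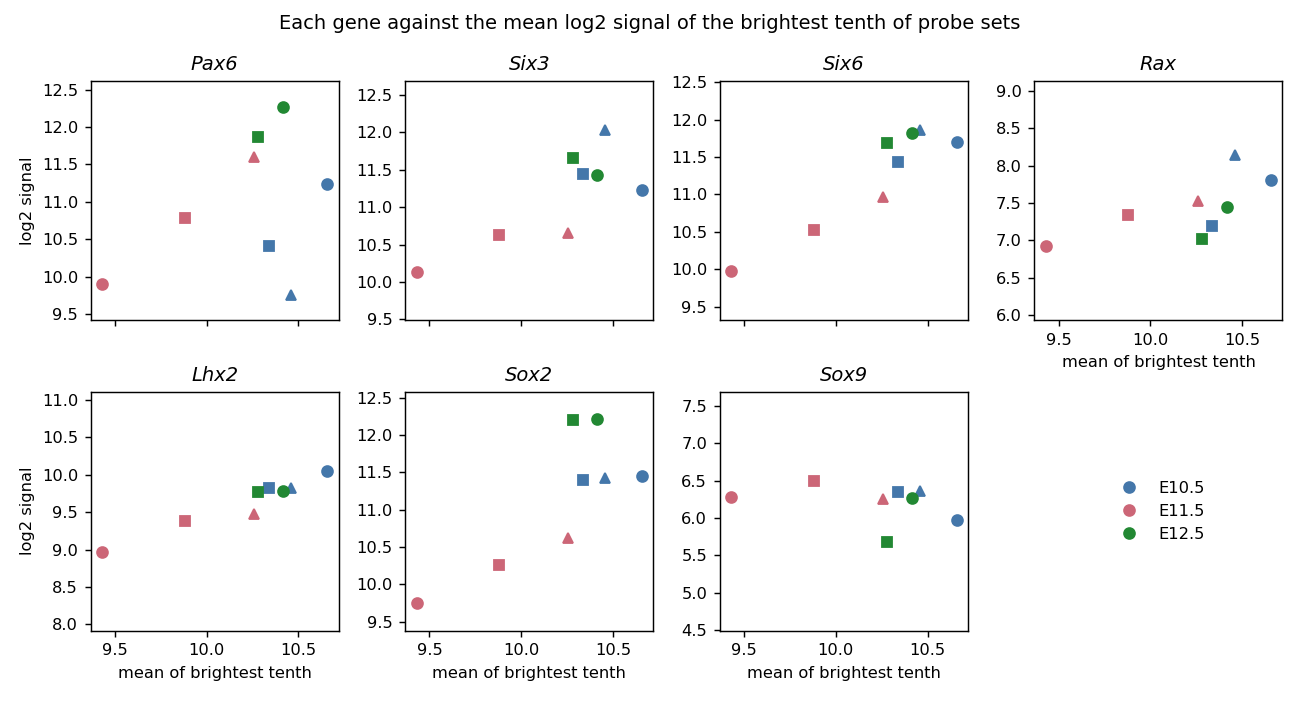
Log2 signal of each gene (vertical axis, own range in each panel) against the mean log2 signal of the brightest 10% of probe sets on the same array (horizontal axis), 1 point per array, coloured by stage, with the array letter as the shape. E11.5 A is lowest on the horizontal axis, at 9.43, and lowest for Six3, Six6, Lhx2, Rax and Sox2. The 2 E12.5 arrays have the highest Sox2 and Pax6 signal at a horizontal value inside the E10.5 range or just below it.

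Genes that act with these factors in retinal progenitors were examined next, from a list of 22 of which 19 had a tested probe set. At E12.5 against E11.5, 8 of the 19 rose and 0 fell, beside 1.79% higher and 0.238% lower of all genes, with a list median of 1.10 (0.87 after quantile normalization). Hes5, a Notch target that holds progenitors undifferentiated, averaged 11.46 at E12.5 against 5.95 at E11.5, a rise of 5.51 (SE 0.43, limma adjusted p = 5.74e-05). Fgf15, an early retinal growth factor, averaged 11.06 at E12.5 against 7.27 at E11.5, a rise of 3.79 (SE 0.38, limma adjusted p = 0.000416).

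The other 6 that rose were Rorb (2.53), Sfrp2 (2.06), Fzd5 (2.05), Ccnd1 (1.89), Foxn4 (1.83) and Notch1 (1.76). Rorb is a nuclear receptor of the retina, Sfrp2 and Fzd5 belong to Wnt signalling, Ccnd1 is the cyclin of retinal progenitor division, Foxn4 is a progenitor factor and Notch1 is the receptor upstream of Hes5. The count was 9 without E10.5 C and E11.5 A together, 2 without E12.5 B, 5 without E12.5 A and 4 without E11.5 B. None of the 19 passed in E11.5 minus E10.5 by limma, beside 0.153% higher and 0.023% lower of all genes. At an unadjusted p below 0.05, 3 were higher and 7 lower there, beside 3.4% and 16% of all probe sets. The list median in that comparison was −0.61 (−0.27 after quantile normalization). At E12.5 against E10.5, 6 rose and 1 fell, beside 3.49% and 1.78% of all genes. The one that fell was Otx2, a factor of pigment epithelium and photoreceptors, which averaged 9.34 at E12.5 and 10.68 at E10.5, a difference of −1.34 (SE 0.34, limma adjusted p = 0.0469). That call was lost without any 1 of E10.5 A, E10.5 C, E11.5 B, E12.5 A and E12.5 B.

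**Figure D5:**
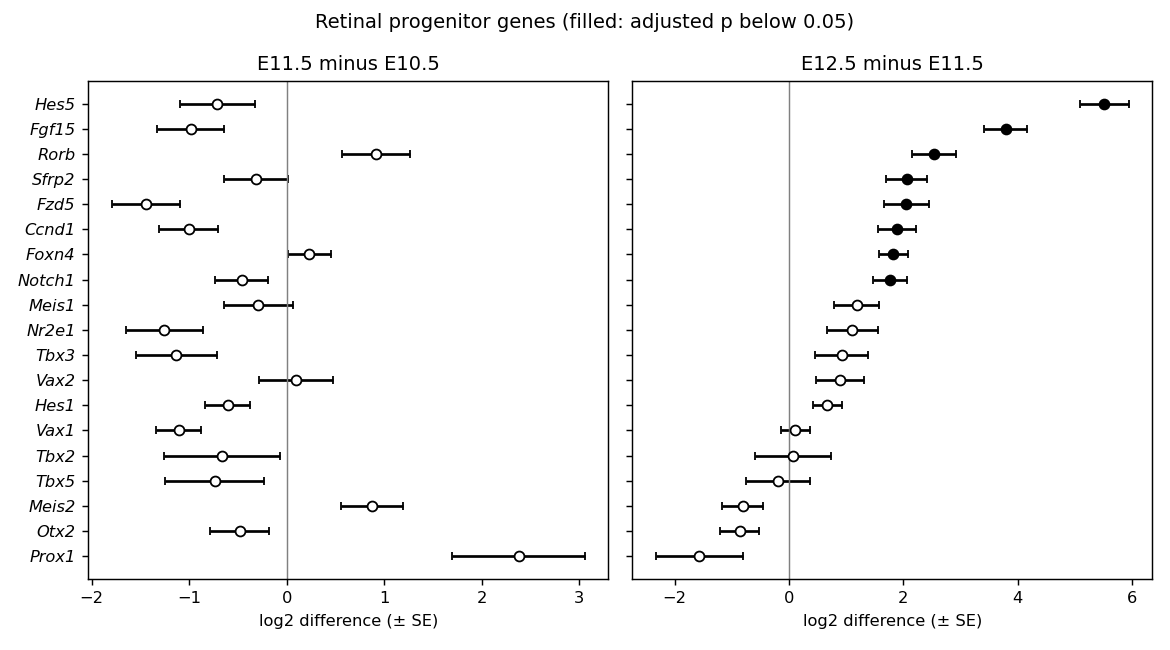
Difference of stage means on the log2 scale (horizontal axis, later minus earlier, bars of 1 SE) for the 19 tested retinal progenitor genes, in E11.5 minus E10.5 and in E12.5 minus E11.5. Filled points have a limma adjusted p below 0.05. In the second panel 8 genes are filled, from Notch1 at 1.76 to Hes5 at 5.51, and in the first none is.

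Proneural genes known to act downstream of Pax6 are given as levels only. Of 6 listed, 3 passed the filter, and they did so through their signal on the E12.5 arrays, so no test is given. Atoh7, required for retinal ganglion cells, averaged 11.99 at E12.5 against 3.68 at E11.5, and Neurog2 averaged 10.38 at E12.5 against 3.49 at E11.5. Neurod1 averaged 9.20 at E12.5 against 3.31 at E11.5. At E10.5, as at E11.5, the means of all 3 lay below the filter level of 3.94.

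Co-repressors and co-factors of Six3, Six6, Pax6 and their relatives had 12 tested genes of 14 listed. Tle1 and Tle4, Groucho-type co-repressors that Six3 and Six6 recruit, rose at E12.5 over E11.5 by 1.96 (SE 0.31, limma adjusted p = 0.00831) and 1.54 (SE 0.33, limma adjusted p = 0.0423), and 0 fell, beside 1.79% higher and 0.238% lower of all genes. The other 10 did not pass, among them Gmnn, a Six3-binding regulator of replication, at 0.81 (SE 0.50, limma adjusted p = 0.441). Their median was 0.33 in this comparison, but −0.14 after quantile normalization, and the count was 0 without E12.5 B and 1 without any 1 of E10.5 A, E10.5 B, E11.5 A, E11.5 B and E12.5 A. None of the 12 passed in the other 2 comparisons by limma. At an unadjusted p below 0.05, 0 were higher and 5 lower at E11.5 against E10.5, beside 3.4% and 16% of all probe sets, and the median there was −0.64, or −0.08 after quantile normalization. At E12.5 against E10.5, 2 were higher and 1 lower, beside 10.7% and 11.5%.

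Relatives of the 7 factors are set beside all genes, of which 1.79% rose at E12.5 over E11.5 and 3.49% at E12.5 over E10.5. Among 8 tested genes of the Six3-related, Eya and Dach families, Dach1, which acts with Eya proteins, rose at E12.5 over E11.5 by 1.72 (SE 0.35, limma adjusted p = 0.0338) and over E10.5 by 2.0 (SE 0.35, limma adjusted p = 0.00952). The first call was lost without any 1 of E10.5 B, E11.5 A, E11.5 B, E12.5 A and E12.5 B. Of 5 tested Pax relatives Pax7, a factor of dorsal neural tube and muscle precursors, rose at E12.5 over E11.5 by 1.31 (SE 0.28, limma adjusted p = 0.0425), a call lost after quantile normalization and in all but 2 of the fits that left out 1 array. Against E10.5 the Pax7 difference was 1.58 (SE 0.28, limma adjusted p = 0.0106).

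Of 13 tested Sox relatives 0 passed in any comparison by limma. At an unadjusted p below 0.05, 2 were higher and 2 lower at E12.5 against E11.5, 0 and 3 at E11.5 against E10.5, and 1 and 3 at E12.5 against E10.5. Over all probe sets the shares higher and lower were 13.8% and 2.92%, 3.4% and 16%, and 10.7% and 11.5% in these comparisons. Sox11, a factor of newly formed neurons, differed at E12.5 from E11.5 by 1.26 (SE 0.45, limma adjusted p = 0.191) and Sox6 by −1.37 (SE 0.31, limma adjusted p = 0.0519). Sox4 differed in the same comparison by 1.02 (SE 0.43, limma adjusted p = 0.262).

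LIM-domain genes that can share partners with Lhx2 had 10 tested members of 17. Among all genes, 1.79% rose at E12.5 over E11.5, and against E10.5 0.023% fell at E11.5 and 1.78% at E12.5. Isl1, a factor of ganglion cells, rose at E12.5 over E11.5 by 3.60 (SE 0.59, limma adjusted p = 0.0103), and Ldb2, which bridges LIM homeobox proteins, rose by 1.90 (SE 0.24, limma adjusted p = 0.0019). Lmo3, a LIM-only protein, changed by −1.52 at E11.5 against E10.5 (SE 0.22, limma adjusted p = 0.0318) and by −2.59 at E12.5 against E10.5 (SE 0.24, limma adjusted p = 0.00017). The first Lmo3 call was kept without E10.5 A and lost without any 1 of the other 7 arrays, and the second was kept in all 8 of these fits. Within E12.5, Isl1 was 6.32 (array A) and 9.27 (array B, with the higher neuron marker sum). Without E11.5 A, 1 of the 2 rises was called.

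Neural stem cell genes linked to Sox2 had 9 tested members of 11. Fabp7, a fatty acid binding protein of neural progenitors, was the one that passed, with a rise at E12.5 of 1.70 over E11.5 (SE 0.29, limma adjusted p = 0.0123) and of 1.16 over E10.5 (SE 0.29, limma adjusted p = 0.0448). Over all genes, 1.79% rose at E12.5 over E11.5 and 3.49% at E12.5 over E10.5. All 9 tested members had positive differences in E12.5 minus E11.5, with a median of 0.74, and 0.22 after quantile normalization. In that comparison 40% of all kept probe sets and 14% of the brightest 10% lay below 0. The Fabp7 call over E11.5 was lost without E11.5 A, E11.5 B or E12.5 B. Cartilage genes driven by Sox9 had 7 tested members of 13 and 0 called in any comparison by limma. At an unadjusted p below 0.05, 0 were higher in E11.5 minus E10.5, E12.5 minus E11.5 and E12.5 minus E10.5. In the same order, 0, 2 and 3 were lower. Over all probe sets the shares were 3.4%, 13.8% and 10.7% higher, and 16%, 2.92% and 11.5% lower. Col2a1, the cartilage collagen, averaged 5.71, 5.36 and 4.81 at E10.5, E11.5 and E12.5.

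The members were also set against every other gene by the shape of their signal over the 8 arrays, as the root mean square difference in log2 units after each was centred on its own mean. This is a description without a test, and array-wide shifts enter it. For Sox2 the nearest of 13049 genes were Ccnd1 (0.15), Fzd5 (0.16) and Dpysl2 (0.23). Fzd5 (0.14) and Ccnd1 (0.15) were still the nearest after quantile normalization. Pax6 was nearest to Cdon (0.14), Rhoq (0.19) and Iqgap2 (0.19), and kept Iqgap2 (0.10) after quantile normalization. Cdon, a co-receptor of hedgehog signalling, measured 11.13, 10.58 and 9.76 at E10.5, 9.70, 10.83 and 11.33 at E11.5, and 12.24 and 11.69 at E12.5 on the log2 scale, the same order of arrays within each stage as Pax6.

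The 5 remaining members kept 0 of their 3 nearest genes after quantile normalization. On the deposited values Six6 was nearest to Ezh2 (0.08), Ankrd10 and Sf3b1 (both 0.11), and Six3 to Ptn (0.16), Cfl1 and Smchd1 (both 0.17). Lhx2 was nearest to Uqcrc2, Med22 (both 0.06) and Tcf4 (0.07), Rax to Invs (0.08), Tmem80 and Inppl1 (both 0.10), and Sox9 to Lmbr1l, Slc45a3 (both 0.10) and Hic1 (0.11). Among the members themselves Six3 and Six6 were the closest pair, at 0.24. Six6 and Sox2 and likewise Rax and Lhx2 were at 0.33, and Pax6 was at least 0.78 from each of the others.

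Transcripts named for their position opposite Pax6 and Six3, and one that overlaps Sox2, were on the array and were chosen for mention after their values were seen. Pax6os1 measured 4.57, 3.51 and 4.32 at E10.5, 4.47, 5.06 and 4.68 at E11.5, and 5.82 and 5.98 at E12.5 on the log2 scale. Both E12.5 arrays lay above the others. The rise of Pax6os1 at E12.5 over E10.5 was 1.77 (SE 0.29, limma adjusted p = 0.00702), and its difference from E11.5 was 1.17 (SE 0.29, limma adjusted p = 0.08). Six3os1 measured 7.47, 7.68 and 8.51 at E10.5, 6.63, 7.55 and 7.44 at E11.5, and 7.85 and 7.62 at E12.5, and it did not pass in any comparison. Sox2ot, the transcript in which Sox2 lies, was below the filter, between 3.69 and 4.32.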

How the data were processed

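Signals of 45101 probe sets on 8 arrays were used as the authors' deposited log2 values. The submitters' processing notes list GCOS 1.4 without saying what it did; probe summarization and normalization are not given in the sources used here. Per the labels' protocols, RNA was amplified by 2 rounds of in vitro transcription, which favours the 3 prime ends of transcripts. The number of arrays limits the precision.

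Left out were 64 control probe sets and the lowest 40% by mean log2 signal (below 3.94), which kept 27022. Platform annotation gave 1 gene symbol for 34958 probe sets, several for 932 and none for 9211, and 34754 matched a RefSeq table of assembly GRCm38.p6.

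The log2 values were fitted without further scaling with limma 3.58.1 (R 4.3.3) in 1 model of stage over 8 arrays, with a mean-signal trend, two-sided tests and Benjamini-Hochberg adjustment over the kept probe sets at a threshold of 0.05. The fit was tested on simulated data. Within-array pairs were tested by exact permutation of the stage F statistic. Gene lists were described by counts and medians, with 1 probe set (highest mean signal) a gene. Named genes were all members, the 3 genes of nearest shape to each, and up to 4 genes of smallest p in a list; further list genes (Rorb, Foxn4, Gmnn, Sox4 and the like) were added after their values were seen. Members and lists were chosen with earlier results of these data known. Alternatives were quantile normalization, median centring, pseudocounts of 1 and 64, no filter or the lowest 60% left out, no trend, array weights, fits of 2 stages, a replicate block and each array left out. Added after seeing the data were the fit without E10.5 C and E11.5 A, and shape after quantile normalization. The letters A to C do not pair the samples. Certain genes are not reported here.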

Additional observations from a re-analysis of the deposited data

How the results depend on the processing

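The rise of Sox2 at E12.5 over E11.5 was called in 17 of 20 settings, all positive, between 1.39 and 2.20 on the log2 scale (limma adjusted p between 5.41e-06 and 0.226). With 2 or 3 arrays a stage, 1 array could end a call: fits without 1 array called 0 to 2 member probe sets for E12.5 minus E11.5, 0 to 1 for E12.5 minus E10.5 and 0 to 2 for any stage difference, which was 0 without E11.5 B, E12.5 A or E12.5 B. Without E11.5 C Six6 joined Sox2 at E12.5 over E11.5. Over all probe sets the calls were 0 (pseudocount of 64) to 2733 for E11.5 minus E10.5, 114 (without E12.5 B) to 10431 for E12.5 minus E11.5, 209 (without E12.5 B) to 3054 for E12.5 minus E10.5, and 189 (without E12.5 B) to 11538 for any stage difference, each highest with array weights.

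Array weights, estimated gene by gene, called 4 member probe sets for E11.5 minus E10.5, 6 for E12.5 minus E11.5, 2 for E12.5 minus E10.5 and 7 for any stage difference, and rested on a weight of 11.8 for E11.5 B against at most 1.77 for every other array. Quantile normalization called 2 for E12.5 minus E10.5 and 2 for any stage difference, Sox2 and Pax6 in both. Leaving out E10.5 C and E11.5 A together called 1 for E12.5 minus E10.5 and 2 for any stage difference. The cause of these changes was not tested.

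Arrays with the same letter did not deviate together (correlations between −0.39 and 0.13), so the letters give no pairing. With the letter as a replicate block, Sox2 at E12.5 over E11.5 was 2.10 (limma adjusted p = 0.0475), 0 member probe sets were called for any stage difference, and Sox9 minus Sox2 gave an exact permutation p of 0.0556. With no block and without 1 E10.5 or E11.5 array, the exact permutation p of Sox9 minus Sox2 lay between 0.00952 and 0.019. Fewer arrays leave fewer assignments, which raises the smallest p such a test can give.

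Values that changed sign were all of differences that did not pass. Six3 at E12.5 minus E10.5 became 0.18 with quantile normalization, 0.0062 with median centring, 0.087 with array weights, 0.13 with the replicate block, 0.035 as the mean of its probe sets and 0.21 without E10.5 C and E11.5 A, and lay between −0.20 and 0.21 without 1 array. Rax at E12.5 minus E11.5 became 0.15 with the replicate block and lay between −0.24 and 0.19 without 1 array. Without 1 array, Pax6 at E11.5 minus E10.5 lay between −0.13 and 0.73, Six6 at E12.5 minus E10.5 between −0.026 and 0.18, and Sox9 between −0.013 and 0.18 at E11.5 minus E10.5 and between −0.54 and 0.046 at E12.5 minus E10.5.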
